A study of Mus musculus with 8 samples.

Results

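The 7 genes described here, Oxt, Avp, Hcrt, Pmch, Agrp, Gal and Ghrh, encode neuropeptides that are best known from the hypothalamus, and were measured in RNA of dissected mouse hippocampus. They were chosen by name after their signals in these samples had been seen, so their levels and differences are given as a description, with no test. Each is represented by 1 probe, and the 7 are among 27171 genes and unnamed transcripts that could be tested. A probe was kept when some group had it above background in both of its samples. All 7 passed, and 6 of them were well above background on all 8 arrays. Avp was above background on 7.

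Male C57BL/6J mice aged 11 weeks fell into 4 groups. The SED group was sedentary on food with a placebo powder, the ME group had mild treadmill exercise on the same food, the AX group was sedentary on food with astaxanthin powder, and the AX+ME group had both. Astaxanthin is a red carotenoid, here from the alga Haematococcus pluvialis. The powder was 0.5% of the food and held 2% astaxanthin. The study's text gives 8 mice per group, and each group has 2 samples, of which replicate 1 carried the dye Cy3 and replicate 2 the dye Cy5. How the mice became 2 samples is not stated, nor whether these are separate animals, so that any spread or p-value may be technical. All 8 arrays lay on 1 slide, with a dye in each row and a group in each column. Position on the slide and group therefore cannot be told apart. In ground whole tissue, fewer cells of a type and less RNA per cell cannot be told apart either.

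Neuropeptides are cut from longer precursors in the secretory pathway, stored in dense-core vesicles and released onto G-protein-coupled receptors. Oxytocin (Oxt) and vasopressin (Avp) are made by magnocellular neurons of the paraventricular and supraoptic nuclei, whose axons end in the posterior pituitary, and oxytocin and vasopressin fibres also reach the hippocampus. Orexin (Hcrt) and melanin-concentrating hormone (Pmch) mark separate neurons of the lateral hypothalamus, Agrp and Ghrh mark neurons of the arcuate nucleus, and galanin (Gal) is made in many places, including noradrenergic neurons that project to the hippocampus.

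Oxt and Avp are neighbouring genes on chromosome 2, on opposite strands. The 250 bases before each start, from RefSeq on build GRCm38.p6, are shown. By group means, the signals of both genes were lowest in ME and highest in AX. Over the 8 samples their log2 signals, centred within each dye, had a Pearson correlation of 0.64. The window of Oxt is chr2:130575919-130576168 on the plus strand, and that of Avp is chr2:130582589-130582838 on the minus strand. Both are written 5′ to 3′ along the gene, and capitals mark TGACC or its reverse complement GGTCA, a core of half-sites that nuclear receptors bind.
Oxt: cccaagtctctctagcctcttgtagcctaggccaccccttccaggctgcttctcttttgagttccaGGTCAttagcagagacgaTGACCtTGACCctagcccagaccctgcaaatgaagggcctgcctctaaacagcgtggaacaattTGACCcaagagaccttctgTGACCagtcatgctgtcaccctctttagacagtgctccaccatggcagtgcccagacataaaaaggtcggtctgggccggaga
Avp: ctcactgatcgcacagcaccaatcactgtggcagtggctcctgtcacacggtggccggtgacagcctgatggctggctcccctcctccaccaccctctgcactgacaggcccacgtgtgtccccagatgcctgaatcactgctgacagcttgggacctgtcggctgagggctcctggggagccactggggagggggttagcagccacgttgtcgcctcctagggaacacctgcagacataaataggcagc
The Oxt window holds 5 matches to TGACC on either strand, at positions -184, -166, -160, -102 and -83 relative to the start, and none of them overlap. The Avp window holds 0. At least 1 match occurs in 35.2% of the same windows of 32851 promoters in the table, and at least 5 matches in 0.0426%. The cyclic AMP response core TGACG was found 0 times in both windows, against 17.8% of all windows with a match. The E-box CANNTG was found 1 time before Oxt and 3 times before Avp, against 66.2% of windows with at least 1. TGACG differs from TGACC in its last letter, so that no match counts for both. A match is a description of letters, and no binding was measured.

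Levels are given as relative signal, the processed intensity of the sample's own dye divided by the 75th percentile of the signals on that array. The percentile ranged from 1416 to 2317 intensity units. Between 63.2% and 76.2% of spots were well above background, and 0 of the neuropeptide spots were saturated. Levels of different probes are not compared. The 12 genes on a list of hippocampus markers were each above background on all 8 arrays. Of 16 hypothalamic transcription factors, Otp, Six6, Fezf1, Foxb1 and Bsx were above background on no array, and Sim1 on 1 array. Of the 16 factors, 5 were above background on all arrays: Nr5a1, a factor of the ventromedial hypothalamus, with relative signals of 0.459 to 0.711, Ebf3 with 0.150 to 0.203, and Arnt2, Lhx9 and Pou3f2.

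Both SED arrays carried areas of dim spots in array columns below 70. There, 9.27% of spots in SED replicate 1 and 12.3% in SED replicate 2 lay at least 0.8 log2 below the other arrays of the dye, against at most 0.842% on the other arrays. The spots of Avp (column 39), Hcrt (column 26) and Gal (column 61) lie in these columns. The spots of Oxt (column 86), Agrp (column 100), Pmch (column 123) and Ghrh (column 125) lie outside them.

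**Figure D1:**
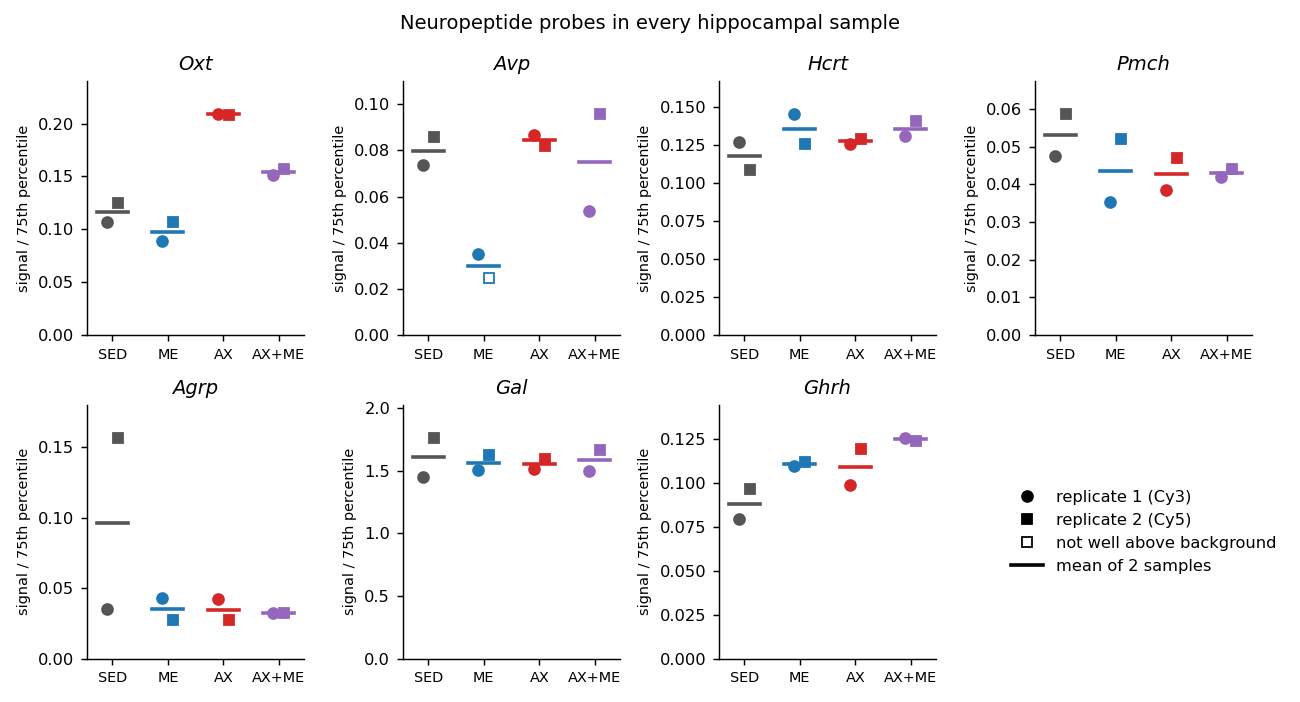
Relative signal (processed signal over the 75th percentile of the array, linear axes from 0) of the 7 neuropeptide probes by group. Circles are replicate 1 (Cy3), squares are replicate 2 (Cy5), bars are means of 2 samples and the open symbol is not well above background. Oxt is highest in both AX samples, Avp lowest in both ME samples, and Agrp stands out in 1 SED sample.

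Oxytocin, the peptide of labour, milk ejection and social recognition, was highest in the AX group. With Cy3 the relative signal of Oxt was 0.107 in SED, 0.0888 in ME, 0.209 in AX and 0.151 in AX+ME. With Cy5 it was 0.125, 0.107, 0.208 and 0.157 in the same order. Both dyes gave the order AX, AX+ME, SED, ME, and no group overlapped another, although the lowest SED sample and the highest ME sample lay side by side. The group means were 0.116 ± 0.0126 in SED, 0.0978 ± 0.0127 in ME, 0.209 ± 0.000405 in AX and 0.154 ± 0.00409 in AX+ME (SD, n = 2). SED and ME are the neighbours in this order whose means lie closest against their spread.

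Against SED, Oxt was 1.81-fold higher in AX, with log2 differences of 0.96 in Cy3 and 0.74 in Cy5. In AX+ME it was 1.33-fold higher than in SED (0.50 and 0.33). In ME it was lower than in SED by a log2 difference of -0.25 (-0.27 and -0.23). Adding the diet to exercise gave a similar picture: AX+ME stood 1.58-fold above ME (0.77 and 0.56). Adding exercise to the diet went the other way, and AX+ME lay below AX with a log2 difference of -0.44 (-0.47 and -0.41). In each dye the astaxanthin sample thus exceeded the placebo sample at either activity level, and the exercised sample lay below the sedentary one on either diet. The sign of all 5 Oxt differences was kept in each of 17 other ways of processing or leaving out a sample. Their size was not: with normexp background correction, the difference of AX from SED was 0.47 and that of AX+ME from SED was 0.08. Around the Oxt spot, 5.77% of neighbouring spots were dim in SED replicate 1, 5.56% in ME replicate 1, and 0% on the other 6 arrays.

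Vasopressin, the antidiuretic peptide that also acts in social memory, was lowest in the ME group. The relative signal of Avp with Cy3 was 0.0738 in SED, 0.0351 in ME, 0.0866 in AX and 0.0539 in AX+ME. With Cy5 it was 0.0860 in SED, 0.0247 in ME, 0.0821 in AX and 0.0957 in AX+ME. Both ME samples lay below the other 6, and the ME sample in Cy5 was not well above background. The samples of SED, AX and AX+ME overlapped, and the AX+ME samples were the farthest apart of any group.

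Avp in ME was 0.369 times its level in SED, with log2 differences of -1.07 in Cy3 and -1.80 in Cy5. AX+ME was 2.44-fold above ME (0.62 and 1.96), with a log2 difference of 1.29 that lay between 0.69 and 1.76 under the alternatives. Since the ME sample in Cy5 was not well above background, only the Cy3 values, -1.07 and 0.62, compare signals measured on both sides, and the Cy5 values and the means over both dyes are not exact. AX against SED (0.23 and -0.07) and AX+ME against SED (-0.45 and 0.15) had opposite signs in the 2 dyes. The difference of ME from SED was between -1.85 and -0.79 under the alternatives that could be computed, the smallest with normexp correction. Its spot lies in the dim columns: 5.88% and 19.0% of its neighbours were dim on the SED arrays and 12.2% in ME replicate 2, with a median neighbour difference there of -0.08 log2. In ME replicate 1, 0% of neighbours were dim. The part of these areas in the difference was not tested.

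**Figure D2:**
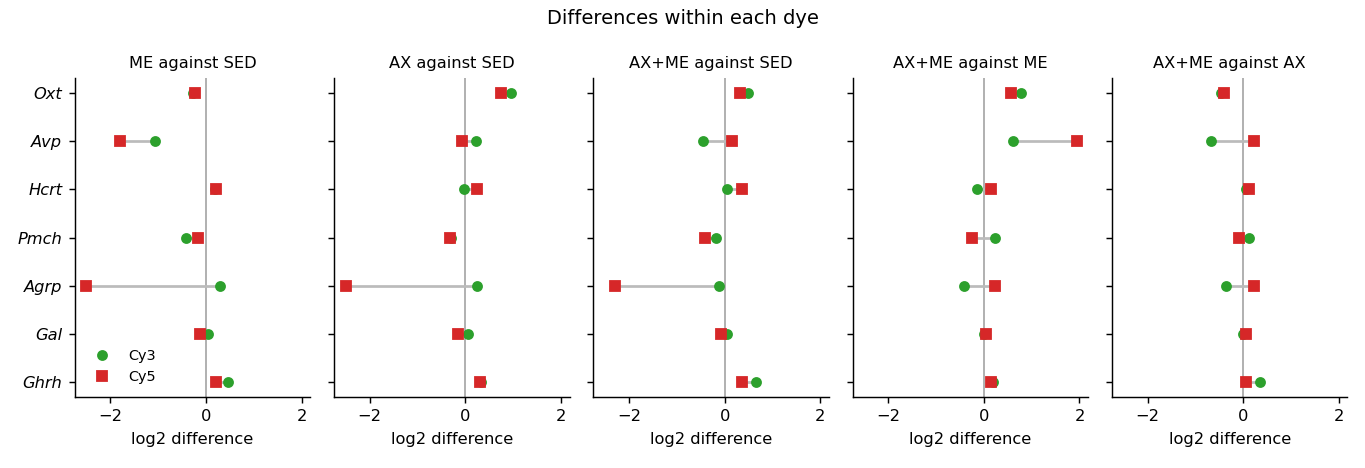
Log2 difference of each neuropeptide within each dye (circles Cy3, squares Cy5, 1 sample against 1 sample) for 5 comparisons between groups. Oxt lies to the right for AX against SED in both dyes (0.96 and 0.74) and Avp to the left for ME against SED (-1.07 and -1.80), and the 2 dyes of Agrp lie far apart in the 3 comparisons with SED.

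All 27171 genes give the background for these differences. A gene was counted when it was at least 1.5-fold apart in the same direction in both dyes. For ME against SED this held for Avp alone among the 7, and for 3.53% of all genes. For AX against SED it held for Oxt alone, and for 3.86% of all genes. For AX+ME against SED it held for 0 of the 7 and 5.03% of all genes. For AX+ME against ME it held for Avp and 1.23% of all genes, and Oxt missed it in Cy5, at 0.56 log2. For AX+ME against AX it held for 0 of the 7 and 0.939% of all genes. The members were selected on these contrasts, so nothing is read from the counts. The median log2 difference of the 7 was -0.25, 0.08, -0.02, 0.02 and 0.02 in these 5 comparisons, beside -0.06, -0.04, -0.03, 0.01 and 0.01 for all genes. The 3 comparisons with SED share its 2 samples.

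Orexin, the wake-promoting peptide also called hypocretin, had overlapping groups. In the order SED, ME, AX, AX+ME, the relative signal of Hcrt was 0.128, 0.146, 0.126 and 0.131 with Cy3. With Cy5 it was 0.109, 0.126, 0.130 and 0.141. The highest of the 8 samples was 1.34-fold above the lowest. The mean log2 difference from SED was 0.20 in ME, 0.11 in AX and 0.20 in AX+ME. With normexp correction these were 0.47, 0.43 and 0.50, and without SED replicate 2 they were 0.10, 0.01 and 0.10. Of the 7 spots, this one had the most dim neighbours: 25.5% and 26.5% of its neighbours were dim on the SED arrays, and 0% on the other 6. The median neighbour on the SED arrays differed from the other arrays of the dye by -0.14 and -0.47 log2, and the part of this in the Hcrt values was not tested.

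Melanin-concentrating hormone, which promotes feeding and sleep, had its highest sample in SED in each dye. In the order SED, ME, AX, AX+ME, the relative signal of Pmch with Cy3 was 0.0475, 0.0354, 0.0384 and 0.0419. With Cy5 it was 0.0586, 0.0520, 0.0469 and 0.0440. The groups overlapped once dyes were pooled. The mean log2 difference from SED was -0.30 in ME, -0.31 in AX and -0.30 in AX+ME. Without ME replicate 1 the first was -0.13, and without AX+ME replicate 2 the third was -0.14. At most 1.75% of the neighbours of this spot were dim on any array. Over the 8 samples, dye-centred Hcrt and Pmch had a Pearson correlation of -0.83, as a description of values that share the 2 SED arrays.

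Agrp, which drives feeding by blocking melanocortin receptors, was high in a single sample. Its relative signal was 0.157 in SED replicate 2 and between 0.0273 and 0.0434 in the other 7, including 0.0353 in SED replicate 1. The highest sample was 5.74-fold above the lowest. The mean differences from SED, -1.11 in ME, -1.12 in AX and -1.20 in AX+ME, rest on that array: without SED replicate 2 they were 0.18, 0.17 and 0.09. Around this spot 2.63% of neighbours were dim on that array. Genes that stood apart on 1 array were more frequent in Cy5 than in Cy3. Counted were 15593 genes whose brightest kept probe lies from column 70 on. Of these, 55 lay at least 2 log2 above the mean of the other Cy5 arrays in SED replicate 2. The number was 41 in ME, 82 in AX and 35 in AX+ME with that dye, and between 3 and 5 on each Cy3 array. Agrp lay 2.44 log2 above that mean in SED replicate 2.

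Galanin, a peptide that damps neuronal firing, was the most even of the 7. Its relative signal with Cy3 lay between 1.45 in SED and 1.51 in AX, and with Cy5 between 1.59 in AX and 1.76 in SED. All 4 groups overlapped, and the highest sample was 1.21-fold above the lowest. On the SED arrays 10.9% and 11.8% of its neighbours were dim, and 0% on the other 6.

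Ghrh, which releases growth hormone from the pituitary, was lowest in SED and highest in AX+ME. In the order SED, ME, AX, AX+ME, the relative signal of Ghrh with Cy3 was 0.0795, 0.110, 0.0992 and 0.126. With Cy5 it was 0.0967, 0.112, 0.119 and 0.124. SED was the lowest and AX+ME the highest sample of each dye, while ME and AX overlapped. AX+ME was 1.43-fold above SED (0.66 and 0.36 log2). ME and AX were above SED by 0.34 and 0.31 log2. With normexp correction these differences were 0.17 for AX+ME, 0.03 for ME and -0.03 for AX, so the direction for AX was not kept. At most 2.27% of neighbouring spots were dim on any array.

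**Figure D3:**
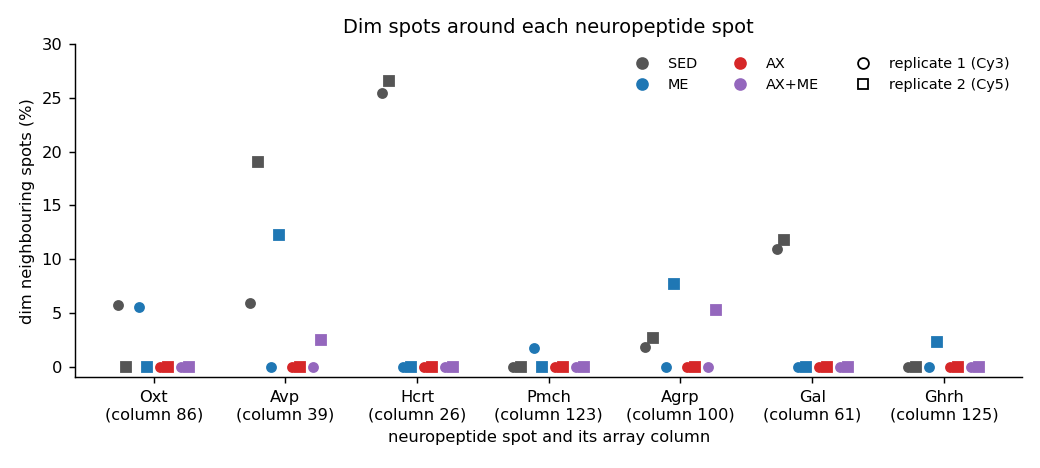
Share of dim spots among the neighbours of each neuropeptide spot (within 4 rows and columns; dim means at least 0.8 log2 below the other arrays of the dye) on each of the 8 arrays. The SED arrays reach 25.5% and 26.5% around Hcrt and 5.88% and 19.0% around Avp. Around Pmch and Ghrh no array exceeds 2.27%.

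The genes most like each neuropeptide were ranked among 420 genes measured on all arrays outside the dim columns whose group means spanned at least 0.5 log2, by Pearson correlation of dye-centred log2 values over 8 samples. For Oxt these were Pou5f2 (0.96), Lcn2 (0.95) and Chek1 (0.92). Lcn2, which encodes the iron-carrier-binding protein lipocalin 2, had relative signals of 0.560 and 0.572 in AX against 0.318 to 0.392 in the other 6 samples. For Ghrh they were Olfr521 (0.96), Tldc2 (0.95) and Cyp2c68 (0.95), and for Pmch Ccn4 (0.92), Oasl1 (0.91) and Tgtp2 (0.90). For Agrp they were Casq2 (0.99), Slc2a9 (0.99) and Zfp438 (0.98), each highest in SED replicate 2: Casq2, the calcium store protein calsequestrin 2, read 0.283 there and 0.0775 to 0.0929 elsewhere. For Hcrt they were Pnlip (0.83), Snd1 (0.81) and Olfr1143 (0.74), and for Gal Pde6h (0.90), Tex36 (0.89) and Crygc (0.88). The genes like Gal were also each highest in SED replicate 2, where Pde6h read 0.115, against 0.0491 to 0.0660 elsewhere. Avp was not ranked, as it was not above background on all arrays. These values share samples and were picked for being the highest, so they describe likeness only.

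The receptors did not pass the test. Of 13 receptor genes of these peptides, 8 were tested and 0 passed an adjusted p of 0.05 in any comparison (limma with Benjamini-Hochberg adjustment over all genes, as for every adjusted p here), while 3 had an unadjusted p under 0.05 in at least 1 comparison. Oxtr, the oxytocin receptor, had log2 differences from SED of -0.25 in ME, -0.31 in AX and -0.37 in AX+ME (adjusted p = 0.189, 0.127 and 0.0783). Hcrtr1, an orexin receptor, had -0.32, -0.45 and -0.25 (adjusted p = 0.0874, 0.0512 and 0.0921). Both probes lie in the dim columns (41 and 65). Mc4r, also among the 3, lies outside them in column 107. Its differences from SED were 0.22 in ME, 0.07 in AX and 0.11 in AX+ME (adjusted p = 0.1085, 0.460 and 0.238). Avpr1b, Mchr1, Mc3r and Mc4r were above background on all arrays, with relative signals of 0.0650 to 0.0973, 0.111 to 0.173, 0.901 to 1.16 and 0.361 to 0.452. Avpr2 was above background on 0 arrays, Galr3 on 1, Galr2 on 2, Avpr1a on 3, Hcrtr2 and Ghrhr on 4, and Galr1 on 5.

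By the same test, 2.94% of all genes passed for ME against SED, 3.4% for AX against SED, 6.7% for AX+ME against SED and 0.471% for the interaction, that is, the effect of exercise on the diet minus that on placebo. For AX+ME against ME and AX+ME against AX 0% passed by limma, while 2251 and 1631 genes had an unadjusted p under 0.05. With the 17499 genes measured from column 70 on, 0, 0, 4, 3, 0 and 0 genes passed in the 6 comparisons. The 84 tested companion genes are receptors, other peptides, processing enzymes, hypothalamic factors and markers of neighbouring tissues. Their lists were also chosen with earlier results of these data known, so their counts are not read against the shares of all genes. Of these companion genes, 12 passed in ME, 3 in AX and 14 in AX+ME, each against SED, and 4 in the interaction. None passed from column 70 on, and none passed when any single ME, AX or AX+ME sample was left out.

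Of 12 other hypothalamic peptides, 7 were tested and 2 passed, both lower than in SED in all 3 treated groups. Trh, thyrotropin-releasing hormone, had log2 differences of -1.63 in ME, -1.91 in AX and -1.30 in AX+ME (SE 0.0854; adjusted p = 0.0100, 0.00966 and 0.0112). Pomc, the precursor of melanocortins and corticotropin, had -1.13, -0.58 and -0.70 (SE 0.0586; adjusted p = 0.0100, 0.0249 and 0.0161). Of the 7, 2 had a positive difference in AX, 0.48 for Prlh and 0.04 for Cartpt (adjusted p = 0.403 and 0.643). The list median was -0.08, and the Prlh probe lies in the dim columns (14). Whether these genes and Oxt share a source was not tested. Of 10 peptides that hippocampal neurons also make, 9 were tested and 0 passed in any of the 6 comparisons by limma, with 5 at an unadjusted p under 0.05 in some comparison. Their widest differences were 0.45 for Npy in ME and -1.01 for Penk in AX, against SED (adjusted p = 0.0657 and 0.0724). The probes of Npy and Penk lie in the dim columns (51 and 15). Of 10 genes of prohormone processing, all were tested and 0 passed by limma, with 4 at an unadjusted p under 0.05 in some comparison. Their widest differences were 0.62 for Pcsk1 in AX+ME, a convertase, and -0.77 for Cpe in AX, a carboxypeptidase (adjusted p = 0.186 and 0.0685). The tested probes of Pcsk1 and Cpe lie in the dim columns (46 and 37). A second probe of Cpe, outside the dim columns, gave -0.16 for the same comparison.

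Some markers of other tissues also differed between groups. Of 12 pituitary markers, 7 were tested, and Fshb, Tshb and Pitx1 were above background on no array. The summed relative signal of all 12 was 0.970 to 0.987 in ME and 1.76 to 1.81 in SED. It was 1.43 to 1.44 in AX and 1.38 to 1.39 in AX+ME. Pomc contributed 0.574 and 0.577 to the ME sums and was lower in ME than in SED by a log2 difference of -1.13. Over the 8 samples Pomc read between 0.574 and 1.31, so the sums mostly follow this 1 gene. In ME against SED 4 passed as lower and 0 as higher. Prl, prolactin, was dimmer than the background limit on both ME arrays and was at least 5.32-fold higher in SED (adjusted p = 0.0133). Cga, the common hormone subunit, was also among the 4 (adjusted p = 0.0179), but stayed under the background limit on both ME arrays and on 1 of 2 SED arrays, so no fold is given. Of the other tested markers, Lhb had a difference of 0.80 in ME (adjusted p = 0.0863) and Ghrhr of 0.27 (adjusted p = 0.559), so the list did not go one way. In AX+ME the difference of Lhb from SED was 1.09 (adjusted p = 0.0432). The Lhb probe lies in column 64, among the dim columns of the SED arrays. Over the 8 samples, dye-centred Prl, Cga and Pomc had Pearson correlations of 0.88, 0.89 and 0.71 with Avp. With Oxt these were 0.72, 0.65 and 0.16. The part of pituitary material in the Avp and Oxt values was not tested.

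**Figure D4:**
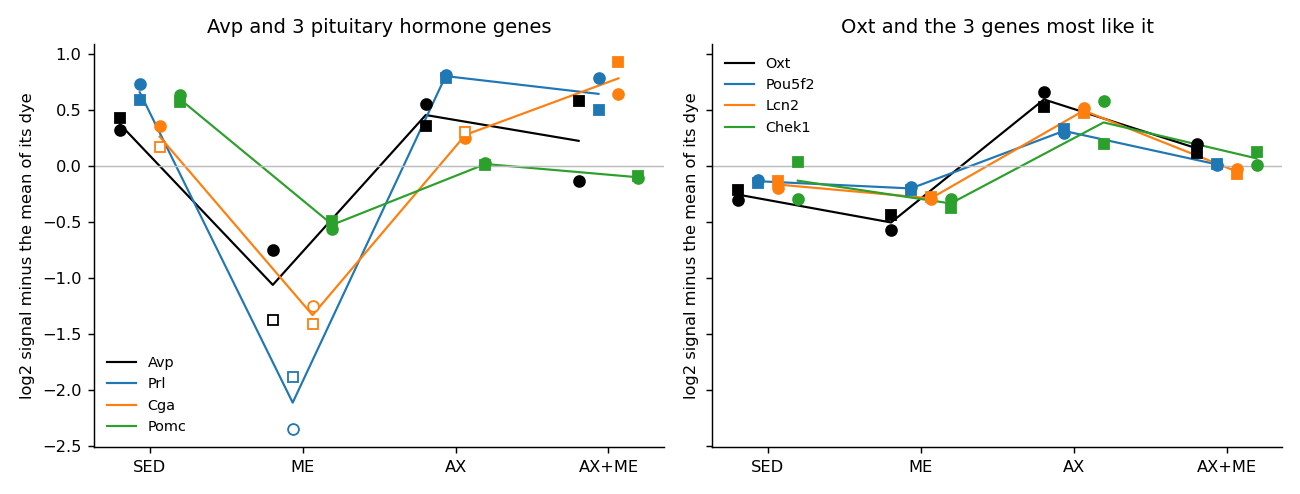
Dye-centred log2 relative signal by group (circles Cy3, squares Cy5, lines through group means, open symbols not well above background) of Avp with 3 pituitary hormone genes, left, and of Oxt with the 3 genes most like it, right. Avp, Prl and Cga are lowest in both ME samples, most of which are open symbols. The 3 pituitary genes drawn are among the 4 that passed as lower in ME than in SED. Lhb, not drawn, had a difference of 0.80 in ME. Cga is at the floor of 0.005 in both ME samples. Oxt and the genes chosen for likeness to it are highest in both AX samples.

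Rax, which marks tanycytes at the floor of the third ventricle, was above background on 5 arrays, 1 of them in AX+ME, and was lower in AX+ME than in SED by a log2 difference of -1.68 (adjusted p = 0.0355). It was the only gene to pass among 8 tested hypothalamic factors and 9 tested tanycyte and ependymal markers. The summed signal of the hypothalamic factors was 4.87 to 5.42 in SED, 4.38 to 4.42 in ME, 4.43 to 4.50 in AX and 4.47 to 4.54 in AX+ME and is carried mostly by Arnt2 (2.59 to 3.37). Of the 8 tested factors 3 had a positive and 5 a negative log2 difference in AX against SED, with a list median of -0.11. Among the positive ones were 1.30 for Nkx2-4 and 0.84 for Hmx3 (adjusted p = 0.342 and 0.222). These 2 probes lie in the dim columns (12 and 49) and were above background on only 5 and 3 arrays. All 12 choroid plexus markers had a negative difference from SED in ME and in AX+ME, and 5 and 7 of them passed. Among those that passed in AX+ME were F5, Otx2, Aqp1 and Folr1, with differences of -0.64, -0.59, -0.82 and -0.54. No choroid plexus marker passed in AX. The 10 striatum and septum markers were split against SED, with 5 positive and 5 negative differences in ME and in AX. In AX+ME 6 were positive and 4 negative. Drd1 was lower in all 3 treated groups (-0.59, -0.64 and -0.39). Isl1, on column 9, was at least 2.15-fold higher in ME and at least 1.69-fold higher in AX+ME than in SED (adjusted p = 0.0133 and 0.0220). Both SED arrays were under the background limit for Isl1. Of 7 tested thalamus markers only Prkcd passed, at 0.31 in AX+ME. Among the hippocampus markers Zbtb20, on column 1, was lower in ME and AX+ME (-0.52 and -0.42), the second turning to 0.12 with normexp correction. The part of tissue carried along in dissection in the neuropeptide values was not tested.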

How the data were processed

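Scanner files of 8 arrays (SurePrint G3 Mouse GE 8x60K), 1 sample each, were used. Per the submitters' processing notes, the authors ran Agilent Feature Extraction 11.0.1.1. The deposited intensities are background-subtracted and detrended within each array, per the file headers, and not scaled between arrays. The array design refers to mm9, per the file headers, and no coordinates were taken from it.

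Control spots (3671 per array) and non-uniform spots were left out, saturated spots kept. The own-dye processed signal was divided by the array's 75th percentile, floored at 0.005 and put on a log2 scale. Symbols came from accessions through the RefSeq table (26582 of 55681 probes). Probes well above background on both arrays of a group were kept (37445), and the brightest probe stood for a gene. All 8 samples entered limma 3.58.1 (R 4.3.3) with terms for group and dye (3 residual and 1.55 prior degrees of freedom), tested on simulated data. P-values are two-sided. Where a group had no array well above background, "at least" sets the other group's mean log2 signal against, in each dim sample, whichever is greater of the probe's signal and the lowest signal called above background there. For the 7 neuropeptides, differences were taken within each dye and averaged. Promoters of 6 of the 7 matched RefSeq (Agrp was not matched), 2 of which are shown.

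The members and lists were chosen with earlier results of these data known. Named are all members and their receptors, at most 4 genes of each other list past the threshold (or, with none, the widest differences), and the 3 genes most like each member. Alternatives covered scaling, background correction, filters, probe choice, the dye term, array columns and leaving out each sample. The files hold median spot signals, so normexp (offset 50) used medians where the plan had means. The number of arrays limits the precision.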

Additional observations from a re-analysis of the deposited data

Results flagged for a closer look

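Among the genes on the companion lists, 4 had an effect of exercise that differed between the diets by limma's interaction term (adjusted p under 0.05 over all genes). The interaction was 2.24 log2 for Trh (adjusted p = 0.0406), 1.01 for Pomc (adjusted p = 0.0467), 2.10 for Cga (adjusted p = 0.0485) and 0.84 for Drd1 (adjusted p = 0.0491). In all 4 the exercise effect was higher on the astaxanthin diet than on placebo. Cga lies in column 28, among the dim columns of the SED arrays. It was above background on 4 of 8 arrays and on neither ME array, so the size of its interaction is not exact. Trh, Pomc and Drd1 lie outside them, and had adjusted p = 0.113 each when the columns from 70 on were tested alone.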

How the results depend on the processing

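The number of genes past the threshold moved with the processing, and the cause was not tested. Set against SED, 799 genes passed in ME, 923 in AX and 1820 in AX+ME. The number was 128 for the interaction and 0 for AX+ME set against ME or AX. With normexp correction it was 1983, 3821 and 5547 against SED and 498 for the interaction. With probes above background on all arrays it was 1353 and 1583 for ME and AX against SED and 230 for the interaction. From column 70 on it was 0, 0 and 4 against SED, 3 for AX+ME against ME and 0 for the interaction. Without the dye term (no replicate block) AX+ME against SED had 984. With no filter AX+ME against ME had 2 and the interaction 71. With the percentile over probes above background on all arrays AX+ME against ME had 1, and with the mean of a gene's probes the interaction had 46. Leaving out 1 sample gave 0 to 4975, 0 to 5041 and 0 to 5365 against SED, 0 to 2 for AX+ME against ME and 0 to 2897 for the interaction. Calls against SED were 0 without any 1 ME, AX or AX+ME sample, and most numerous without SED replicate 1. In these fits the lone sample is assumed to vary like the other groups.

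Of the companion genes, 12, 3 and 14 passed against SED, 4 in the interaction and 0 in the others. With normexp correction 20, 18 and 23 passed against SED, and from column 70 on 0 in each comparison with SED and in the interaction. For AX against SED, 5 passed with no filter and 8 with probes above background on all arrays. For AX+ME against SED, 9 passed without the dye term. For AX+ME against ME, 1 passed with the other percentile. For the interaction, 1 passed with no filter and 1 with the mean of probes. Leaving out 1 sample gave 0 to 29, 0 to 19 and 0 to 26 against SED and 0 to 14 for the interaction. Both Oxt and Avp kept their sign in the differences of ME from SED and of AX+ME from ME under every alternative that could be computed. Avp gave no value from column 70 on or with probes above background on all arrays. Of 295 neuropeptide differences under settings that keep all samples 7 changed sign, and 22 of 280 with a sample left out. Of 53 differences of companion genes named or past the threshold, 1 changed sign: Zbtb20 in AX+ME against SED was 0.124 with normexp correction.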
